A study of Mus musculus with 5 samples.

Results

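Total RNA and polyA RNA of the same fibroblast line, MEFF, were compared along the whole of mouse chromosome 17. The comparison takes every array labelled as total RNA from MEFF (n = 2) and every array labelled as polyA RNA from MEFF (n = 2), which are 4 of the 5 arrays of the series. The remaining array holds polyA RNA of a second line, MEFB, and its values are given only beside those of MEFF. MEFF cells are spontaneously immortalised fibroblasts of FVBN mouse embryos taken at 12.5 days after conception, with the genotype Thp/+. In this line 1 copy of chromosome 17 lacks the Thp interval between the genes T and Sod2, and both MEFF groups share this deletion. MEFB carries the reciprocal deletion on the copy from the other parent. Each line is a single culture-adapted line, and the labels do not tie the 2 arrays of a group to separate cultures; the p-values thus rest on the spread of arrays, which may be technical.

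A cell's polyA RNA is mostly finished mRNA, from which introns have been cut out and to which a tail of adenosines has been added. Its total RNA also holds transcripts that are still being made or spliced, intron pieces not yet degraded, and RNA without a tail. A tiling array reads all of these, because its probes follow the chromosome through exons, introns and the space between genes. Double-stranded cDNA was hybridised in the Cy3 channel and sonicated genomic DNA in the Cy5 channel, so signals of both strands were read together. The unit used below is the level, log2(cDNA/input) with the median of each array set to 0. Of 387986 probes on the chromosome, 334640 (86.3%) were placed on the NCBIM37 build, by inference from the tiling pattern and the input signal. By this placement 15214 lay in exons, 146147 in introns and 156240 between genes.

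The cell type was checked on exon probes. Of 11 markers of fibroblasts and mesenchyme, 8 had an exon level of at least 0.5 on each MEFF array, among them Ltbp1, a matrix protein that binds latent TGF-beta, and Crim1, a membrane protein that binds BMPs. Smoc2 was at background, between -0.08 and -0.05 on the MEFF arrays. Of 16 markers of other cell types, 2 passed the same level, among them Gabbr1, a GABA receptor subunit best known from neurons. The epithelial marker Epcam, the pluripotency factor Pou5f1 and the hepatocyte gene Plg lay below the array median on each MEFF array. Summed over the markers of other cell types, the exon signal above background, on the linear scale of the ratio, was 4.11 and 4.19 on the total RNA arrays and 11.3 and 29.8 on the polyA arrays, against 15.01, 15.7, 36.2 and 89.4 for the fibroblast list.

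The arrays differed in contrast along with the kind of RNA. The lowest cDNA intensity was 1442 and 1486 on the total RNA arrays and 588 and 305 on the MEFF polyA arrays. The 99th percentile was 5.42 and 5.33 times the median for total RNA and 9.17 and 22.4 times for polyA RNA. Exon probes lay above intron probes by 0.68 and 0.70 (log2) with total RNA, by 1.24 and 1.87 with MEFF polyA RNA, and by 1.61 with MEFB. Per the file headers the total RNA arrays also came from other slides than the polyA arrays, so array lot and kind of RNA cannot be told apart. Introns were also expressed on the linear scale as an intron share, the mean intron signal above the intergenic median as a percentage of the mean exon signal above it. The part that the arrays' background has in this share was not tested.

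Introns held a larger part of the signal in total RNA. Over all placed probes, total RNA gave intron shares of 11.4% and 10.7%, MEFF polyA RNA 4.13% and 3.81%, and MEFB polyA RNA 4.76%. The 2 kinds of RNA did not overlap, and the gap between them was several times the difference within a pair. From the cDNA channel alone, without the input, the shares were 17.0% and 17.2% against 7.47% and 5.52%. With 2 arrays a group an exact permutation test of this single value cannot reach significance. The tests made gene by gene below use the same 2 arrays a group, so genes are not replicates of the kind of RNA. A shift common to a whole array enters all genes together, and their calls are not independent.

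Per gene, the share was computed for 298 genes whose exon level was at least 0.5 on each MEFF array. Its median was 15.7% and 13.8% for total RNA and 5.96% and 5.92% for polyA RNA, with 6.44% for MEFB polyA RNA. Over all 629 genes, without that limit on exons, the medians of those with exon signal above background were 19.5% and 16.8% for total RNA and 7.39% and 9.48% for polyA RNA. In 262 of the 298 genes (87.9%) both total RNA arrays lay above both polyA arrays, and in 6 they lay below. The share could be put on a log2 scale in 287 genes, those where it was above 0 on each array. The other 11 were not tested, so a gene with no intron signal above background on an array could not be called in either direction. In limma with Benjamini-Hochberg adjustment over the 287 genes, 245 (85.4%) rose in total RNA and 0 fell, with 248 at an unadjusted p under 0.05. The median difference was 1.21 (log2), which is 2.31-fold, and the middle of the genes, from the lower to the upper quartile, ran from 0.82 to 1.63.

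**Figure D1:**
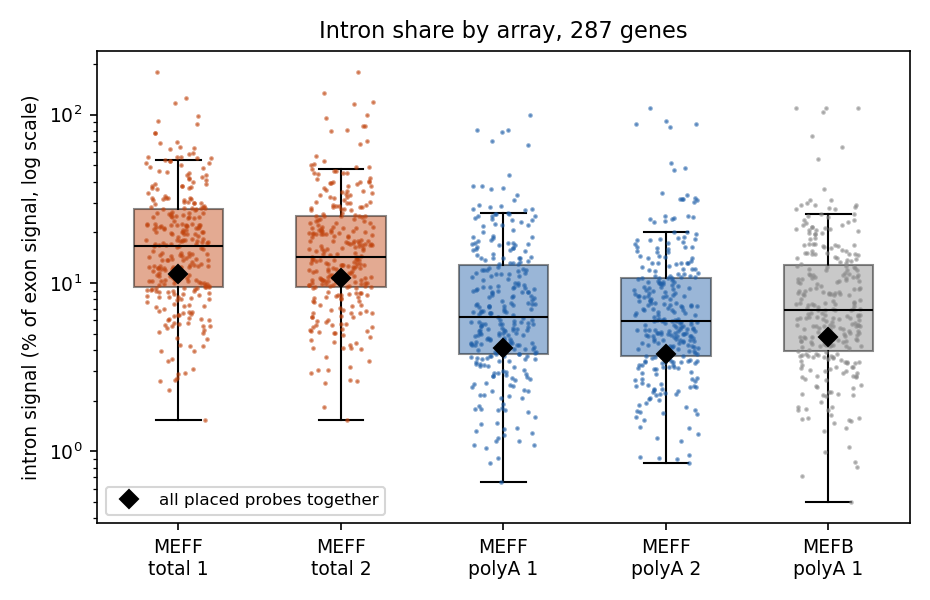
Intron share of 287 genes on each array: each point is a gene, boxes span the quartiles with the median as a line, and whiskers follow the usual box-plot rule. The vertical axis is a log scale of the intron signal in percent of the exon signal, diamonds give the share over all placed probes (total RNA 11.4% and 10.7%, MEFF polyA 4.13% and 3.81%), and both total RNA boxes sit above the 3 polyA boxes.

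The genes with the steepest rise in intron share were mostly long. This set of 10 was taken by size of the difference among called genes, after the values were seen. At its head stood Lclat1, an acyltransferase of phospholipids (chr17:73457325-73592708, plus strand, NCBIM37), with an intron share of 10.3% and 9.77% in total RNA versus 1.77% and 0.93% in polyA RNA. Its difference was 2.97 ± 0.30 (log2, SE; adjusted p = 1.28e-04, limma). Qk, which encodes the RNA-binding protein quaking, a regulator of splicing (chr17:10399336-10512245, minus strand), had 16.3% and 16.0% against 1.79% and 2.52%. In both genes each total RNA array was more than 5 times above each polyA array of MEFF. The others were Tbc1d5, Gtf2h5, Agpat4, Runx2, Efna5, Cenpq, Fbxl17 and Vapa, with differences between 2.53 and 2.72. Tbc1d5, a regulator of endosome traffic, spans 446223 bases and had shares of 11.8% and 11.4% against 1.75% and 1.76%. The introns of Runx2 overlap those of Supt3h and could not be told from them, and Cenpq overlaps Mut. The Runx2 entry in this set had 11 exon probes. Another, overlapping entry of Runx2 with 45 exon probes was tested as well and had a smaller difference, 2.30 (log2). Gtf2h5, a small subunit of the transcription and repair factor TFIIH, is only 6732 bases long and rested on 14 intron probes, with 37.9% and 38.9% against 5.17% and 7.04%.

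Length went with the size of the difference. In genes of 100 kb or more, all 41 tested genes rose, with a median difference of 1.76 (log2), or 3.40-fold. Between 20 and 100 kb, 117 of 128 genes rose, with a median of 1.27, and under 20 kb, 87 of 118 rose, with a median of 0.96. The median share in the longest class was 11.8% and 11.4% for total RNA against 3.99% and 3.24% for polyA RNA, and in the shortest class 21.8% and 19.6% against 10.4% and 9.40%. Short genes thus had the higher share on every array and the smaller ratio between the 2 kinds of RNA. The difference between the length classes was not tested.

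**Figure D2:**
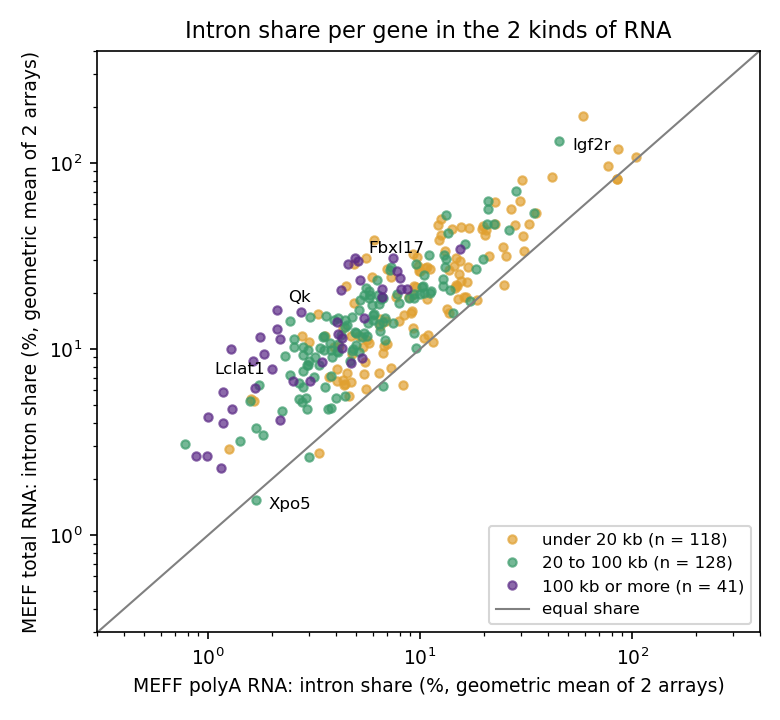
Intron share of 287 genes in total RNA (vertical) against polyA RNA (horizontal), each a geometric mean of 2 MEFF arrays in percent on a log scale, with colour for gene length. Most points lie above the grey line of equal share, with the genes of 100 kb or more farthest from it (median difference 1.76) and Xpo5 just below it.

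The long genes of the fixed list showed this most plainly. All 22 were measured, 13 of them had an exon level of at least 0.5 on each MEFF array, and all 13 rose in intron share, with a median of 2.04 against 1.21 over all genes tested (85.4% called). Fbxl17, an F-box protein that recruits targets to a ubiquitin ligase (chr17:63406801-63849366, minus strand), had a share of 31.2% and 28.2% in total RNA versus 5.03% and 5.19% in polyA RNA, with 7.44% in MEFB. Its difference was 2.54 ± 0.19 (log2, SE; adjusted p = 7.44e-05, limma). Part of its introns also carries the annotated transcript 4930405O22Rik on the same strand. Efna5, the membrane ligand ephrin-A5 (chr17:62953533-63230666), had 12.6% and 12.8% against 1.80% and 2.46%. Zfand3, a zinc-finger protein of little-known function (chr17:30142032-30346964), had 16.8% and 14.7% against 3.45% and 2.19%. Pde10a, a phosphodiesterase of cyclic nucleotides, had 30.2% and 31.3% against 7.50% and 7.41%. In each of these genes the total RNA arrays lay well above all 3 polyA arrays. The smallest rises of the list were in Birc6, a large ubiquitin-conjugating inhibitor of apoptosis, with 4.23% and 4.12% against 2.55% and 1.89%, and in Thada, with 2.88% and 1.83% against 0.85% and 1.54%.

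The other 9 long genes, Slc8a1, Ptprm and Prkce among them, lay below that exon level on at least 1 MEFF array. Alk, Dlgap1, L3mbtl4, Lama1 and Park2 had exon levels below 0 on each of the 4 arrays, and their introns did not rise above the array median either. In Park2, the ubiquitin ligase parkin, intron levels were -0.18 and -0.18 in total RNA versus -0.10 and -0.25 in polyA RNA. Its groups overlapped, as they did for Alk, a receptor tyrosine kinase, with -0.20 and -0.21 against -0.13 and -0.26. No intron signal was thus detectable in these genes in either kind of RNA.

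On the log2 scale of levels, exons of all 13 tested long genes were lower on both total RNA arrays than on both MEFF polyA arrays. Intron levels were higher on both total RNA arrays in 7 of the 13, lower in 1 (Birc6) and overlapping in 5. These counts of overlap were not made for genes in general, so they do not set the long genes apart. Over all 629 genes with enough probes, exon levels had a median difference of -0.90 as deposited. Of these exon levels 0 passed (280 at an unadjusted p under 0.05, limma), and after normexp 343 fell and 0 rose. Intron levels of the same genes had a median difference of -0.08 as deposited. Of these 0 passed (54 at an unadjusted p under 0.05, limma), and after normexp 3 rose and 57 fell. A higher intron share is thus not the same as a higher intron level. Exon levels of Fbxl17 were 0.87 and 0.82 in total RNA versus 1.45 and 2.05 in polyA RNA, while its intron levels were 0.30 and 0.26 against 0.06 and 0.12. In this gene exons were lower and introns higher in total RNA, with no overlap in either. Qk followed the same pattern, with exons at 1.53 and 1.48 against 1.90 and 2.69 and introns at 0.54 and 0.48 against 0.08 and 0.29. Rab31, a small GTPase of vesicle traffic, had exons at 2.64 and 2.41 against 3.71 and 5.02, and its introns, at 0.25 and 0.22 against 0.12 and 0.40, overlapped. Lnpep, a membrane aminopeptidase, had introns at 0.58 and 0.53 against 0.20 and 0.41.

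**Figure D3:**
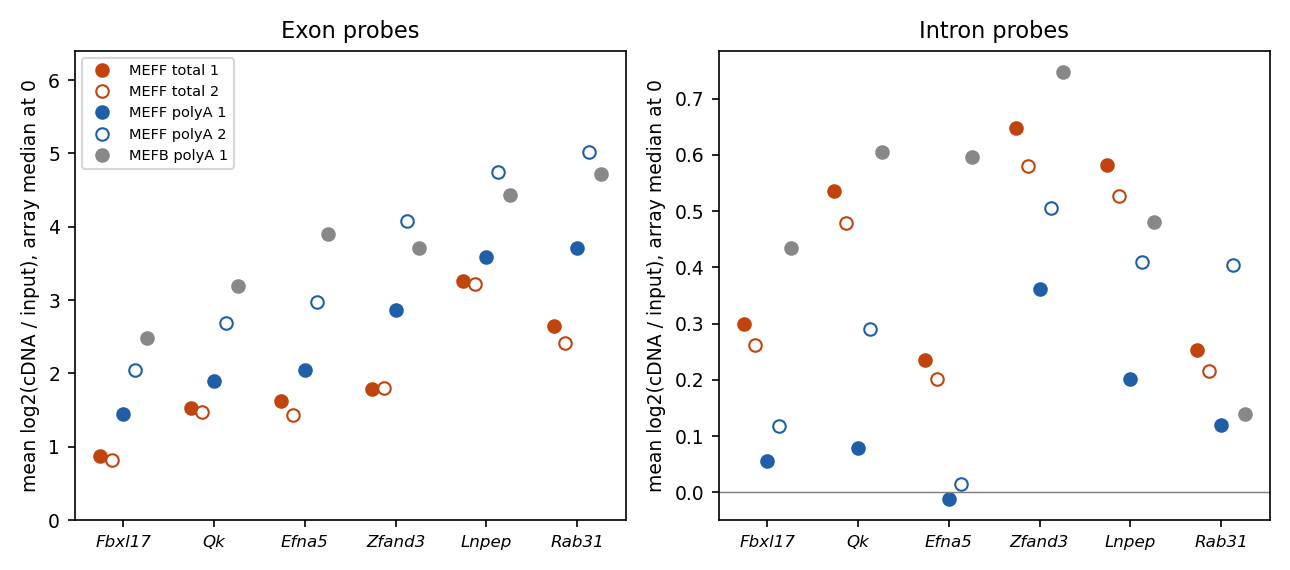
Mean level, log2(cDNA/input) with the array median at 0, over exon probes (left) and intron probes (right) of 6 long genes, 1 point per array. In the left panel the total RNA arrays are the lowest for each gene; in the right panel they lie above both MEFF polyA arrays for Fbxl17, Qk, Efna5, Zfand3 and Lnpep, while for Rab31 the groups overlap. The vertical axes differ in range.

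The within-gene contrast, exon level minus intron level, fell in total RNA across much of the chromosome. It was measured in 629 genes, and 185 (29.4%) fell and 0 rose, with 323 at an unadjusted p under 0.05 (limma, Benjamini-Hochberg). The median difference over all 629 genes was -0.69, and 448 of them (71.2%) had both total RNA arrays below both polyA arrays. After normexp 345 (54.8%) fell and 2 (0.318%) rose, Cryaa and 4833427F10Rik. As deposited, the largest fall was in Vapa, an anchor of the endoplasmic reticulum membrane (chr17:65929396-65962895, minus strand), whose contrast was 1.28 and 1.41 in total RNA versus 3.30 and 3.83 in polyA RNA. That is a difference of -2.22 ± 0.23 (log2, SE; adjusted p = 0.044, limma). Next came Sepx1, Nme4, Mrpl2, Mrpl28, Zfand3, Mrps18a, Gtf2f1, Rab31 and Chaf1a, between -2.17 and -1.79. These include 3 proteins of the mitochondrial ribosome, a subunit of the transcription factor TFIIF (Gtf2f1) and a histone chaperone (Chaf1a). The fall of Gtf2f1 depended on the setting, with a difference of -0.31 after quantile normalization and 0.19 after normexp and quantile together. The other genes named here stayed below 0 in both settings. Without either total RNA array in turn this contrast called 0 genes (440 and 390 without polyA replicate 1 and 2), and the intron share called 208 and 227. Of the 158 genes called by the contrast among those tested for the share, 146 were called by both, which is 92.4% of the first and 59.6% of the 245 of the second. The share alone called 85.4% of the genes tested, and both measures use the same probes and arrays.

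Of 8 testable splicing and processing genes, 6 rose (median 1.08), against 85.4% of all genes tested and a median of 1.21. Hnrnpm, an RNA-binding splicing regulator, had 21.1% and 21.5% in total RNA against 5.73% and 5.34%, and Srsf7, a serine-arginine-rich splicing factor, had 42.1% and 39.9% against 22.9% and 17.99%. Srrm2, a scaffold of nuclear speckles, and Ddx39b, a helicase of splicing and export, did not pass: Srrm2 had 16.6% and 14.8% against 17.9% and 11.4%, and Ddx39b 37.5% and 30% against 28.4% and 33.3%. In both genes the groups overlapped.

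Of 5 testable chromatin and transcription genes, 4 rose (median 1.23), close to the 85.4% and 1.21 of all genes tested. Brd2, a bromodomain protein that binds acetylated histones, had 69.0% and 95.3% against 29.0% and 31.7%, so that its introns came near its exons in total RNA. Chd1, a chromatin remodeler, had 9.34% and 8.76% against 4.38% and 3.38%. Ehmt2, a histone methyltransferase, did not pass, with 14.1% and 10.1% against 12.0% and 9.81%. Mdc1 met the limit on exons but was not tested, since its share was not above 0 on each array. Its share was lower in total RNA, with 0.45% and -0.13% against 1.72% and 1.8%.

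Ribosomal protein genes are short, and few could be tested. Both testable genes of the mitochondrial ribosome rose, as did 85.4% of all genes tested, Mrps18a from 6.76% and 4.52% in polyA RNA to 32.9% and 28.9% in total RNA, and Mrpl2 from 4.91% and 7.21% to 23.4% and 25.03%. No gene of the cytosolic ribosome could be tested, since the 5 measured ones had 1 to 4 exon probes each. Of 6 testable housekeeping genes 4 rose, with a median of 0.64, against 85.4% and 1.21 over all genes tested. Among them Ppp2r1a, the scaffold subunit of a protein phosphatase, had 11.1% and 9.36% against 2.87% and 2.24%, while Vps52 and Dhx16 did not pass. Vegfa, a growth factor of blood vessels and the sole testable member of the unstable mRNAs, had 21.7% and 23.9% against 16.1% and 17.3% and missed the threshold (0.45 ± 0.19, adjusted p = 0.057, limma).

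Among all 287 genes, 42 did not pass, and none of them passed in the other direction. Narfl, Vars, Uhrf1 and Xpo5, named after their values were seen, were among the lowest differences. Xpo5, the exporter of microRNA precursors, had a share of 1.53% and 1.55% in total RNA versus 1.72% and 1.66% in polyA RNA. Its intron signal was thus small beside its exon signal in both. A miss of the threshold does not show that the 2 kinds of RNA are equal in these genes.

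In Ncrna00085, and in Igf2r where another transcript crosses it, intron probes were strong beside exon probes even in polyA RNA. Ncrna00085 (chr17:17967683-17979973, plus strand, NCBIM37), a noncoding transcript whose annotated span holds the hairpin of miR-125a at chr17:17967767-17967851, had an intron share of 118% and 119% in total RNA versus 79.2% and 91.9% in polyA RNA, and 104% in MEFB. The difference, 0.47 ± 0.20 (log2, SE), missed the threshold (adjusted p = 0.051, limma). Its mature microRNAs are shown because the intron-rich transcript spans their hairpin. They are written from RefSeq (GRCm38.p6) with the seed, bases 2 to 8, in capitals, and the probes of 50 bases do not measure the mature forms.
mmu-miR-125a-5p: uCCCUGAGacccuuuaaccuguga
mmu-miR-125a-3p: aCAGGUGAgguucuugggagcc
The gene was picked after its values were seen. Igf2r, the receptor for mannose 6-phosphate and IGF2, had a share of 126% and 135% against 43.9% and 46.9%, and 1.38% in MEFB. Its introns are crossed by Airn, an imprinted noncoding RNA of the opposite strand. Inside the span of Airn the Igf2r introns reached 327% and 353% of the exons that lie outside that span in total RNA versus 116% and 120% in polyA RNA. Outside the span they stayed between -1.13% and 1.06% on the 4 arrays. As log2 levels, the introns inside the span overlapped, at 2.31 and 2.27 in total RNA versus 2.05 and 3.15 in polyA RNA. The exons outside the span, to which the percentages refer, were lower in total RNA, at 1.05 and 0.97 against 1.79 and 2.69. A higher percentage here is thus not a higher level inside the span.

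Along long genes the intron signal of total RNA was highest near the start. In expressed coding genes of at least 50 kb, the introns were divided into 5 equal parts from the 5′ to the 3′ end of the gene, with 82 to 85 genes in each. The median intron share in the first part was 14.7% and 13.4% in total RNA versus 3.50% and 3.19% in polyA RNA. By the third part it was 10.4% and 9.17% against 3.15% and 2.56%, and in the last part 10.6% and 9.36% against 4.27% and 3.82%. On both total RNA arrays the first part was the highest of the 5, and on both polyA arrays the last part was. This profile was described without a test.

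Relative to the exon signal, signal past the annotated ends of genes was also higher in total RNA. Genes without another gene within 10 kb on the side in question were used. In the first kilobase downstream, the median was 7.24% and 7.27% of the exon signal in total RNA versus 2.49% and 2.82% in polyA RNA (83 genes). From 1 to 5 kb downstream it was 2.15% and 2.85% against 0.62% and 1.28%, and from 5 to 10 kb it was 0.78% and 0.66% against 0.18% and 0.79%, where the groups overlapped. The signal itself, not divided by that of the exons, overlapped in the first kilobase, with medians of 0.196 and 0.207 in total RNA versus 0.191 and 0.389 in polyA RNA on the linear ratio scale. Upstream, from 1 to 5 kb before the start, the medians were 0.64% and 1.05% against 0.51% and 0.50%, and farther out all 4 lay between -0.22% and 0.29%.

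**Figure D4:**
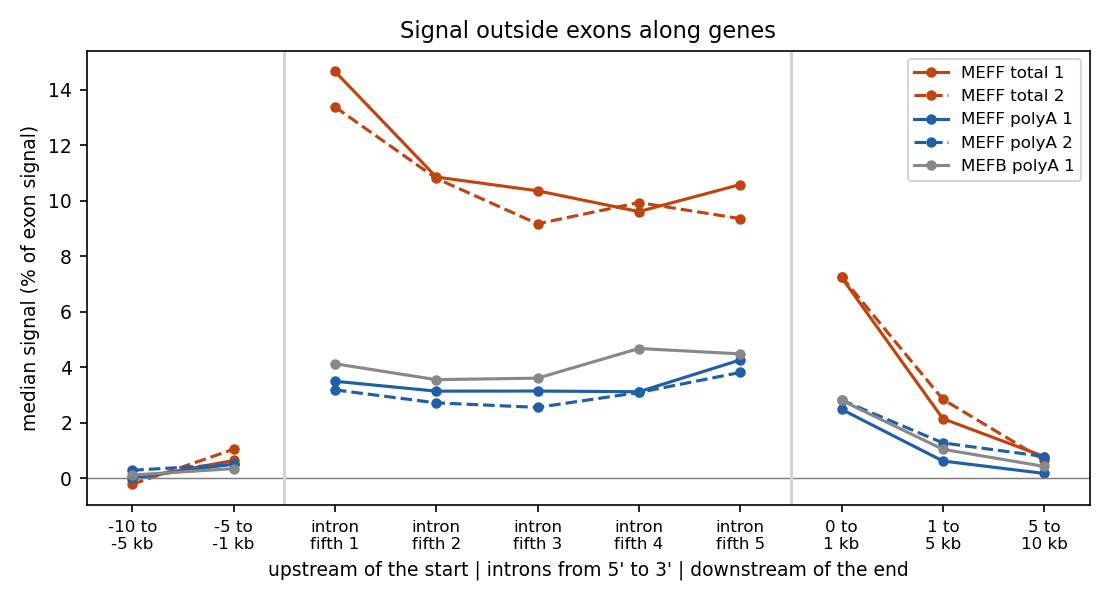
Median signal above the intergenic background, in percent of the exon signal of the same gene, upstream of expressed genes, in 5 parts of the introns of genes of at least 50 kb, and downstream, 1 line per array. The total RNA lines run from 14.7% and 13.4% at the 5′ introns to 10.6% and 9.36% at the 3′ introns, above all 3 polyA lines, and fall towards 0 within 10 kb of the gene end.

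Exon probes themselves were spread differently. They were ranked from 5′ to 3′ and divided into 5 parts in 260 genes with at least 10 such probes. In the last part, which holds most of the 3′ ends, the median was 55.2% and 54.1% of the gene's exon mean in total RNA versus 68.8% and 66.2% in polyA RNA. In the first part it was 76.0% and 79.97% against 74.98% and 71.8%. The 3′ ends of mRNAs thus weighed more in polyA RNA, with no overlap between the groups.

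In windows of 5 kb the same division appeared without choosing genes. Of 15383 windows, 0 passed the threshold on the values as deposited, with 1189 at an unadjusted p under 0.05 (limma, Benjamini-Hochberg). After normexp, a model that subtracts the background of each channel, 521 (3.39%) were called, 106 (0.689%) higher and 415 (2.70%) lower in total RNA. Quantile normalization called 929 (6.04%), 389 (2.53%) higher and 540 (3.51%) lower. The count after normexp depended on single arrays: it was 172 without total RNA replicate 1, 81 without total RNA replicate 2, 1285 without polyA replicate 1 and 1988 without polyA replicate 2. Of these, the higher windows fell from 106 to 8 and 5 without total RNA replicate 1 and 2, and the lower ones from 415 to 164 and 76. As deposited, 4485 and 3197 windows were called without polyA replicate 1 and 2. The median difference of all windows was -0.01 as deposited, -0.10 after normexp and 0.01 after quantile normalization, so calls after normexp stand relative to a median that is itself lower.

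The windows called after normexp sorted by what they hold. Exon windows had at least 2 exon probes. Intron and intergenic windows had no exon probe and at least 80% of their placed probes in introns or between genes. Of the 106 higher windows, 94 were intron windows, 1 was an exon window, 4 were intergenic, 1 was mixed and 6 were not placed. Of the 415 lower windows, 315 were exon windows, 10 intron windows, 17 intergenic, 18 mixed and 55 not placed. Put against all windows of each kind, 2.58% of the 3649 intron windows were higher and 0.274% lower, while 14.4% of the 2194 exon windows were lower and 0.046% higher. Between genes, 0.063% of 6313 windows were higher and 0.269% lower. The higher windows that hold introns fell in a small set of genes, led by Fbxl17 with 18 windows, Efna5 with 17, Qk with 10, Zfand3 with 8, and Lnpep and Tbc1d5 with 7 each.

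**Figure D5:**
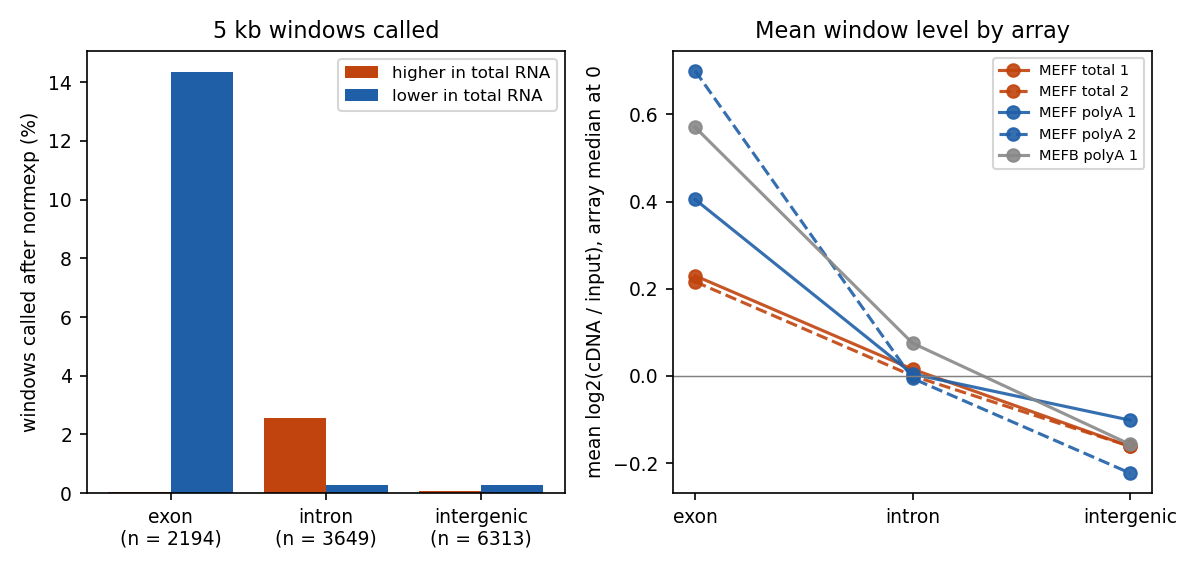
Left: percentage of 5 kb windows called after normexp, by class, with bars for windows higher or lower in total RNA. Exon windows hold at least 2 exon probes, and intron and intergenic windows hold none and at least 80% of placed probes of their kind. Of intron windows 2.58% were higher, and of exon windows 14.4% were lower. Right: mean window level per array in the same classes, log2 with the array median at 0; the exon windows are lowest on the 2 total RNA arrays.

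The 5 longest runs of higher windows lay in introns, apart from 1 window that was not placed. A run could bridge gaps of 1 window that was not called, and its length and mean levels include such windows. Positions of windows are those of the array files, and the sources used here name no build for them. The longest, 65 kb from 61480000 to 61544999, lay in Fbxl17, with mean levels of 0.42 and 0.38 in total RNA versus 0.10 and 0.15 in polyA RNA of MEFF, and 0.56 in MEFB. The next, 45 kb, lay in the same gene, and the others, 35 kb each, lay in Lnpep, Zfand3 and Efna5. In this order, 8 of 13, 7 of 9, 6 of 7, 4 of 7 and 5 of 7 windows of the runs were called. Among windows in the top 10% of levels on both arrays of a kind of RNA, the largest rise on the values as deposited was in an intron of Zfand3 at 28635000, with 1.04 and 0.92 against 0.34 and 0.48, a difference of 0.57 ± 0.10 (log2, SE; adjusted p = 0.57, limma). After normexp that window differed by 1.26, with an adjusted p of 0.0034 (limma).

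Of the 5 longest runs of lower windows, 3 held several genes under 20 kb each, and the other 2 held longer genes. The first, 60 kb from 34355000 to 34414999, holds Mdc1, Nrm, Dhx16 and Atat1, with mean levels of 0.82 and 0.81 in total RNA versus 1.51 and 2.38 in polyA RNA. The others held Hspa1l, Lsm2 and Vars; Klc4, Mrpl2, Cul7 and Ppp2r5d; Notch3, where 4 of 8 windows were not placed; and Pkd1 with Tsc2. In each of the 5 runs both total RNA arrays lay below all 3 polyA arrays, with the smallest gap in the run of Notch3, at 0.50 and 0.54 against 0.74 in MEFB. By file position, lower windows were most frequent from 30 to 35 Mb (13.9%) and from 20 to 25 Mb (10.4%), where 34.8% and 41.1% of windows were exon windows. Higher windows were most frequent from 60 to 65 Mb (4.55%), the stretch that holds Efna5 and Fbxl17.

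Most of the transcribed chromosome was shared by the 2 kinds of RNA. Of 1415 windows in the top 10% on both total RNA arrays and 1369 in the top 10% on both polyA arrays, 1047 were common, which is 74.0% of the first and 76.5% of the second. Ranks are unchanged by a rescaling of the window levels of an array. Those levels are means of log2 ratios of probes, into which the background of an array enters before the mean is taken. The part that background has in these ranks was not tested. Windows in the top 10% of total RNA but below the 80th percentile on both polyA arrays numbered 24, of which 22 were intron windows and 0 exon windows. Windows with the reverse ranks numbered 32, of which 26 were exon windows and 1 an intron window.

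Averaged over whole gene bodies, the difference was largest in short genes and near 0 in long ones, with medians as deposited of -0.38 under 20 kb, -0.15 from 20 to 100 kb and -0.02 at 100 kb or more. Of 906 genes, 546 (60.3%) had both total RNA arrays below both MEFF polyA arrays and 42 (4.64%) had them above, but 0 passed as deposited (147 at an unadjusted p under 0.05, limma). After normexp 145 (16.0%) were lower and 2 (0.221%) higher in total RNA (limma, Benjamini-Hochberg). Without either total RNA replicate in turn, 0 genes passed after normexp, and without polyA replicate 1 or 2, 435 and 260 did. Quantile normalization called 273 (30.1%), 253 (27.9%) lower and 20 (2.21%) higher. After normexp the lower genes were 137 of 540 under 20 kb, 7 of 288 from 20 to 100 kb and 1 of 78 of 100 kb or more. Lowest were Pgp, a phosphatase of phosphoglycolate, with body levels of 1.09 and 1.24 in total RNA versus 2.92 and 4.36 in polyA RNA, and Ier3, a stress-induced early response gene, with 0.74 and 1.07 against 2.60 and 4.02. After normexp their differences were -2.76 ± 0.29 and -2.51 ± 0.35 (log2, SE; adjusted p = 0.015 and 0.022, limma). Pgp spans 1119 bases and Ier3 1240. The next 8 were 1700062I23Rik, 2310014H01Rik, H2-Ke2, Ddah2, Rxrb, D17H6S53E, Gm17168 and Gm17633, between -1.96 and -1.68, of which 5 overlap another gene. The 2 higher were Qk, with 0.62 and 0.57 against 0.23 and 0.49, and 4930405O22Rik inside Fbxl17, with 0.38 and 0.37 against 0.05 and 0.13.

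Over the gene body after normexp 16.0% of all genes fell, and 25.4% of those under 20 kb. All measured genes of both ribosomal lists and of the unstable mRNAs are under 20 kb. Of the cytosolic ribosome 3 of 5 measured genes fell, Rpl10a, Rps28 and Rps2. So did 3 of 7 of the mitochondrial ribosome, 3 of 5 unstable mRNAs (Dusp1, Ier3 and Zfp36l2) and 1 of 8 housekeeping genes. Of 11 splicing and processing genes 5 fell and 1 rose, of 9 chromatin genes 3 fell, and 2 fell of the 11 fibroblast markers and of the 16 markers of other cell types. None of the 22 long genes passed in either direction, and their median was 0.07 after normexp against -0.26 over all 906 genes. These calls rest on the setting, since none of the lists had a call as deposited, and the part that the difference in contrast between the arrays has in them was not tested.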

How the data were processed

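Each array carried cDNA and genomic input in 2 channels. The deposited values are raw probe intensities with no normalization; per the file headers, NimbleScan 2.2.34 read them from the scans. The sources used here name no build for the positions. Each probe gave log2(cDNA/input), centred on the array median. Probes were placed on NCBIM37 from the spacing of the tiling and the input signal, with no cDNA value used, and genes were taken from GENCODE vM1. With probes classed by their centre, exons lay above introns by 0.66 on total RNA replicate 1. A move of all probes by 50 bases either way left 0.52 and 0.57, and a move by 5 kb left 0.15 and 0.14. The error of single probes was not measured. The 14 probes off chromosome 17 were not used. Windows of 5 kb and gene bodies needed 8 probes, and the exon minus intron contrast 5 exon and 8 intron probes. All 5 arrays entered limma 3.58.1 (R 4.3.3) with 3 group means, 2 residual degrees of freedom and Benjamini-Hochberg adjustment at 0.05, checked on simulated data. Only 2 arrays a group limit the precision. Named windows were the 5 with the largest difference per direction among the top 10% and the 5 longest runs; named genes were the 10 largest per direction past the threshold, or past it after normexp, without overlap of the groups, plus list members. Members and lists were chosen with earlier results of these data known, and the intron share test was added after seeing the data. Alternatives were normexp (offset 50), quantile, loess, the cDNA channel alone, other window sizes and filters, and each replicate left out. Some items withheld for evaluation are not reported here.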

Additional observations from a re-analysis of the deposited data

How the results depend on the processing

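All calls of the intron share were higher in total RNA except 1 lower gene among 224 called without polyA replicate 2: 245 of 287 genes were called with the 4 MEFF arrays alone as well, 264 of 298 from the cDNA channel alone, 162 of 186 at an exon level of at least 1, 149 of 177 without overlapping genes, and 208 to 241 without 1 replicate. The difference in share over all probes was 7.08 percentage points, and 10.6 from the cDNA channel alone. Log2 levels depended far more on the setting. Windows called numbered 0 as deposited, 521 after normexp, 929 after quantile and 597 after both; without 1 replicate they ran from 0 to 4485, and with normexp they numbered 172 and 81 (each total RNA array left out) and 1285 and 1988 (each polyA array). Gene bodies called numbered 0 as deposited, 147 after normexp, 273 after quantile, 266 after both and 61 with a trended prior; without 1 replicate they ran from 0 to 607, and with normexp 0, 0, 435 and 260. The exon minus intron contrast called 185 genes as deposited, 347 after normexp, 291 after quantile, 291 with a trended prior and 0 from the cDNA channel alone; without 1 replicate it called 0 to 440, and with normexp 258, 269, 366 and 304. The Srrm2 window at 22410000 reversed to 0.12 after quantile, and the exon minus intron contrast of Gtf2f1 to 0.19 after normexp and quantile together. The causes were not tested. No paired analysis was possible because the replicate numbers follow the order of the samples and pair nothing.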
